A study of Mus musculus with 20 samples.

Results

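The numbered zinc finger protein genes are the mouse genes whose symbol is Zfp followed by digits alone. They were taken by that rule from the symbols in the expression tables, without Zfp36, whose product binds RNA through fingers of another kind. The rule found 339 genes among 23382 symbols. It used no expression value. Most of these genes encode C2H2 zinc finger proteins, in which each finger is a short loop held by a zinc ion between 2 cysteines and 2 histidines and reads a few bases of DNA. Many also carry a KRAB domain, a short stretch at the start of the protein that recruits the corepressor TRIM28 and, through it, histone methylation by SETDB1 and heterochromatin. KRAB zinc finger proteins are best known for silencing retrotransposons, and their genes lie in clusters of tandem copies that differ widely between mammals. A smaller number of the genes have roles of their own in transcription, RNA handling, mitosis or ribosome assembly.

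RNA was sequenced from germinal centre B cells of mice in 20 libraries, 5 in each of 4 groups. Mutant centrocytes and mutant centroblasts were heterozygous for Myd88 L252P (Myd88L252P:+/-), an altered form of the adaptor that passes Toll-like receptor and interleukin-1 receptor signals to NF-kB, and control centrocytes and control centroblasts were Myd88L252P:WT. All 4 groups carried Cgamma1Cre:+/-, a Cre recombinase expressed from the C gamma 1 locus once a B cell transcribes it, so the controls carry Cre too. Centrocytes, the light zone cells, were sorted as B220+FAS+GL7+CXCR4-CD86+ and centroblasts, the dark zone cells, as B220+FAS+GL7+CXCR4+CD86-. The labels give no ages, treatments or times. Nor do they state whether each library is another mouse, and the p-values cover only the spread between the libraries as given.

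Levels are TPM, a level per transcript length that sums to the same total in every library. Read depth is not known from TPM. A fold change is a difference of group means of log2(TPM + 1), so for genes of low level it is smaller than the true change. It was tested with limma over all 11386 genes that reached at least 1 TPM in at least 5 libraries, and a gene is said to have risen or fallen where its Benjamini-Hochberg adjusted p over those genes was under 0.05. In bulk libraries, fewer cells of a type and less RNA per cell cannot be told apart.

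The name describes the sequences well. Of 339 members, 327 had their symbol in the GENCODE M21 annotation of GRCm38, the assembly mm10 stands for, and 12 were found there under a newer symbol. A coding transcript was annotated for 334. A C2H2 finger pattern was found in all of these but 12, among them Zfp365 and Zfp330. The median member had 10 fingers, and Zfp142 had the most with 36. A KRAB A-box was found in 193 members and in 141 it was not. Chromosome 7 held 83 members, chromosome 17 held 39 and chromosome 13 held 32. Within 500 kb of another member lay 223, in 46 clusters of which 14 had at least 5 members.

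Short stretches from the start of 6 genes show how alike neighbours in such a cluster can be. All 6 lie in a cluster of 17 members on chromosome 13, described further below because nearly all of its expressed genes were higher in centrocytes. Capitals mark a match to ACTACA, any 2 bases and TCCC, the core of the site bound by ZFP143, itself a member and an activator of many housekeeping and small nuclear RNA promoters. The match lies on the opposite strand, so it reads as its reverse complement. Sequences are RefSeq GRCm38.p6, 5′ to 3′ on the strand of the gene. They span chr13:67375797-67375856 (Zfp456, minus strand), chr13:67061191-67061250 (Zfp712, minus), chr13:67332576-67332635 (Zfp595, minus), chr13:67683533-67683592 (Zfp738, minus), chr13:67813725-67813784 (Zfp273, plus) and chr13:67128152-67128211 (Zfp759, plus).
Zfp456: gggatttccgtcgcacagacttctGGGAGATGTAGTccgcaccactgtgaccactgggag
Zfp712: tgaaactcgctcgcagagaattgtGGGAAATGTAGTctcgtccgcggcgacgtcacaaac
Zfp595: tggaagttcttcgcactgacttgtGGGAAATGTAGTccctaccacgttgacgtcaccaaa
Zfp738: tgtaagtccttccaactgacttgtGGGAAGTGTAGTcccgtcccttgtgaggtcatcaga
Zfp273: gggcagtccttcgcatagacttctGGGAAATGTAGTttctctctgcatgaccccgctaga
Zfp759: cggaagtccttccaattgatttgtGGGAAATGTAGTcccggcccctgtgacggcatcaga
The bases around the match are alike too, so these are copies and not independent finds.

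Germinal centre B cells transcribed most of the class. Of 339 members 270 passed the filter of 1 TPM in 5 or more libraries, or 79.6%, against 48.7% of all symbols. In every one of the 20 libraries 238 members reached 1 TPM. The other 69 members fell below the filter, and 19 of them were listed at 0 in all 20 libraries. The silent members include genes of other lineages. Zfp42 (Rex1), a marker of pluripotent cells, and Zfp462 were at 0 throughout. Zfp57, which guards imprinted loci, averaged 0.014 TPM in mutant centroblasts and was at 0 in the other groups. Zfp521, a cofactor of immature blood cells that opposes EBF1, averaged 0.021 TPM in mutant centrocytes and 0.0182 TPM in mutant centroblasts and was at 0 in both control groups. Its relative Zfp423 averaged between 0.114 and 0.133 TPM.

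The class is expressed broadly but at low levels. The median expressed member averaged 10.6 TPM over the 20 libraries, against 27.4 TPM for all tested genes. Only 3 members averaged over 100 TPM and 43 lay between 30 and 100. Zfp207, which binds the checkpoint protein BUB3 and spindle microtubules, was the most abundant at 225.5 TPM. Zfp106, an RNA-binding protein needed for motor neurons and muscle in mice, averaged 141 TPM, and Zfp706 averaged 137 TPM. Zfp740 (88.1 TPM), Zfp62 (73.7), Zfp362 (69.9), the nucleolar protein gene Zfp330 (68.5), the BTB factor Zfp131 (63.1), Zfp622, which helps assemble the large ribosomal subunit (61.2), and Zfp91, a ubiquitin ligase of the noncanonical NF-kB pathway (60.7), completed the 10 highest. The members in which no KRAB A-box was found include Zfp207, Zfp62, Zfp362, Zfp131 and Zfp91. Over the class, expressed KRAB members had a median level of 8.10 TPM and expressed members without KRAB 17.4 TPM. Expressed were 78.2% of KRAB members and 82.3% of the others.

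Summed over all 339 members, the level was 5346 ± 341 TPM in mutant centrocytes and 5422 ± 412 TPM in control centrocytes, against 3945 ± 558 TPM in mutant centroblasts and 4648 ± 420 TPM in control centroblasts (SD, n = 5 each). By library the mutant centrocytes 1 to 5 summed to 5351, 5592, 5608, 5409 and 4769 TPM. The control centrocytes summed to 4838, 5746, 5884, 5298 and 5345 TPM. In mutant centroblasts the sums were 4510, 4149, 4284, 3670 and 3111 TPM, and in control centroblasts 4293, 5375, 4498, 4569 and 4505 TPM. All mutant centrocytes lay above all mutant centroblasts, whereas control centroblast 2 lay among the control centrocytes. The number of members at 1 TPM or more was 267 to 272 in mutant centrocytes and 261 to 270 in control centrocytes, against 243 to 256 in mutant centroblasts and 250 to 260 in control centroblasts. Reaching 1 TPM in all 5 libraries of the group were 263 members in mutant centrocytes, 257 in control centrocytes, 239 in mutant centroblasts and 247 in control centroblasts.

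**Figure D1:**
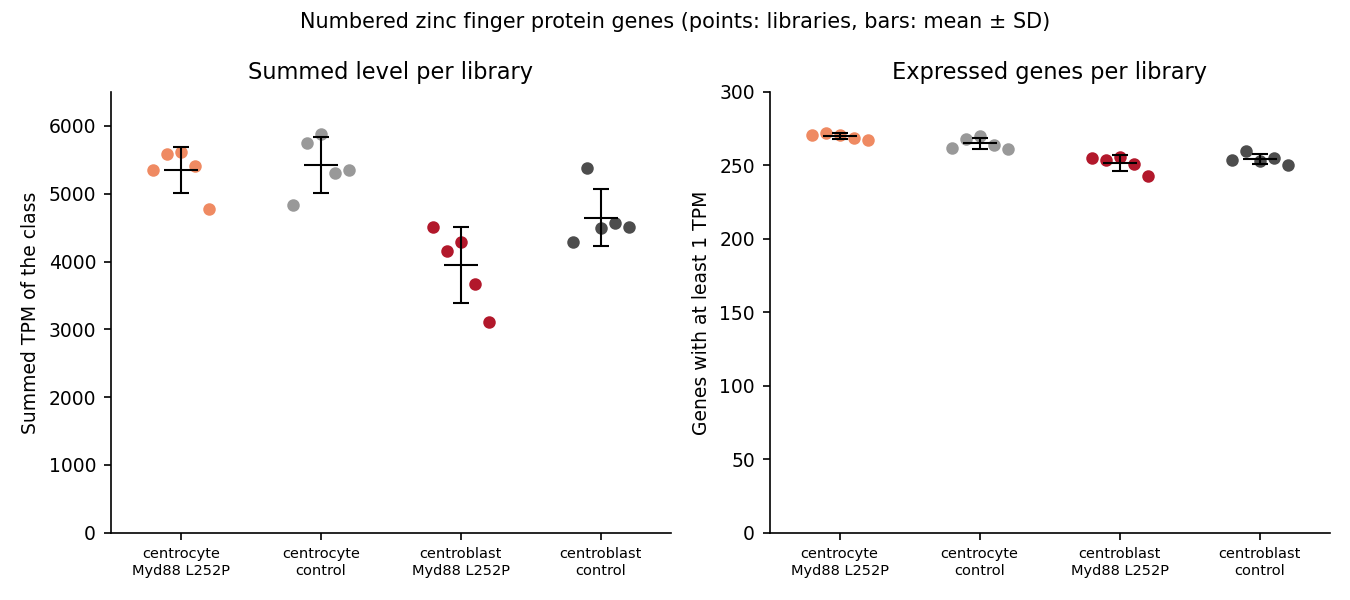
Left, summed TPM of the 339 numbered zinc finger protein genes in each library; right, how many of them reached at least 1 TPM. Points are libraries, bars are group means ± SD (n = 5). Both centrocyte groups sit above both centroblast groups, with control centroblast 2 at 5375 TPM and mutant centroblasts 4 and 5 at 3670 and 3111 TPM.

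Libraries 4 and 5 of the mutant centroblasts stood apart from the other 18. Transcripts no longer than 800 bases made up 38.3% and 42.6% of the TPM there and 31.8% to 35.2% in the rest, and members had longer transcripts (median 2340.5 bases) than all tested genes (1463). TPM is a share, so a library with more TPM in short abundant transcripts has less for the rest. Without these libraries the mutant centroblasts summed to 4314 ± 182 TPM (SD, n = 3). Cell type markers differed between the sorts as well. Of 10 naive B cell markers, 8 rose in control centrocytes, and their summed level was 1775 to 2085 TPM in mutant centrocytes and 1512 to 2062 in control centrocytes, against 776 to 1100 in mutant centroblasts and 918 to 1239 in control centroblasts. Of 8 tested macrophage markers 7 rose in control centrocytes. Their sum over the 9 in the tables was 77.2 to 187 TPM in mutant centrocytes and 99.1 to 197 in control centrocytes, against 38.9 to 78.0 in mutant centroblasts and 40.2 to 59.8 in control centroblasts. Of 4 tested T cell markers 3 rose in control centrocytes, and the 8 in the tables summed to 12.7 to 21.7 TPM in mutant centrocytes and 13.1 to 22.6 in control centrocytes, against 6.65 to 10.8 in mutant centroblasts and 7.42 to 11 in control centroblasts. Of 6 plasma cell markers 3 rose and 1 fell in control centrocytes, and they summed to 815 to 1376 TPM in mutant centrocytes and 881 to 1129 in control centrocytes, against 1540 to 1898 in mutant centroblasts and 1436 to 1822 in control centroblasts. The 6 erythroid markers, of which 3 were tested and 0 passed between control zones, summed to 232 to 574 TPM in mutant centrocytes and 40.9 to 271 in control centrocytes, and to 323 to 804 in mutant centroblasts and 22.5 to 269 in control centroblasts. Hba-a1 and Hba-a2 were the only markers of these lists at 0 throughout. Of 10 germinal centre B cell markers 1 rose and 2 fell in control centrocytes. They summed to 8335 to 9363 TPM in mutant centrocytes and 9278 to 9982 in control centrocytes. The sum was 7559 to 8426 TPM in mutant centroblasts and 8264 to 8618 in control centroblasts. The part of such cells, and of library composition, in the results below was not tested.

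The class had a larger mean share of the TPM in centrocytes than in centroblasts in both genotypes. In mutants 176 of 270 tested members rose and 5 fell, or 65.2% and 1.85%, where 48.8% of all tested genes rose and 12.6% fell, 61.5% in all. The median member differed by 0.51 on the log2 scale, against 0.34 for all tested genes. In controls 89 members rose and 3 fell, or 33.0% and 1.11%, where 21.2% of all tested genes rose and 9.48% fell (30.7% in all), and the medians were 0.34 for members and 0.14 for all. All 5 centrocyte libraries lay above all 5 centroblast libraries for 109 members in mutants, or 40.4% against 28.7% of all tested genes, and for 40 in controls, or 14.8% against 17.0% of all. The reverse held for 3 members in mutants (1.11%, against 7.91% of all) and 6 in controls (2.22%, against 9.51%). Members lower in centrocytes were rare in both genotypes on the TPM as given.

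How many genes are called depends on how libraries are scaled, because the median of all genes was itself off 0. Scaled by the median of gene ratios, which brings the median of all genes to 0.01 in mutants and 0.00 in controls, the median member still differed by 0.20 in mutants and 0.22 in controls. With that scaling 103 of 269 members rose and 24 fell in mutants, while 3362 of 11355 genes rose and 3286 fell. In controls it gave 66 rises and 16 falls among members, and 2037 rises and 2009 falls among all genes. Without mutant centroblasts 4 and 5 the counts were 157 rises and 8 falls in mutants, where 35.9% of all genes rose and 14.9% fell, and 131 rises and 9 falls in controls, where 33.4% rose and 14.3% fell. That omission leaves the control libraries as they are, and it changes the control count through the shared estimate of the spread. The filter on low values let 14 members pass only through centrocytes and 0 only through centroblasts. Among the 256 members that passed it in centroblasts, 163 rose and 5 fell in mutants, and 84 rose and 3 fell in controls.

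**Figure D2:**
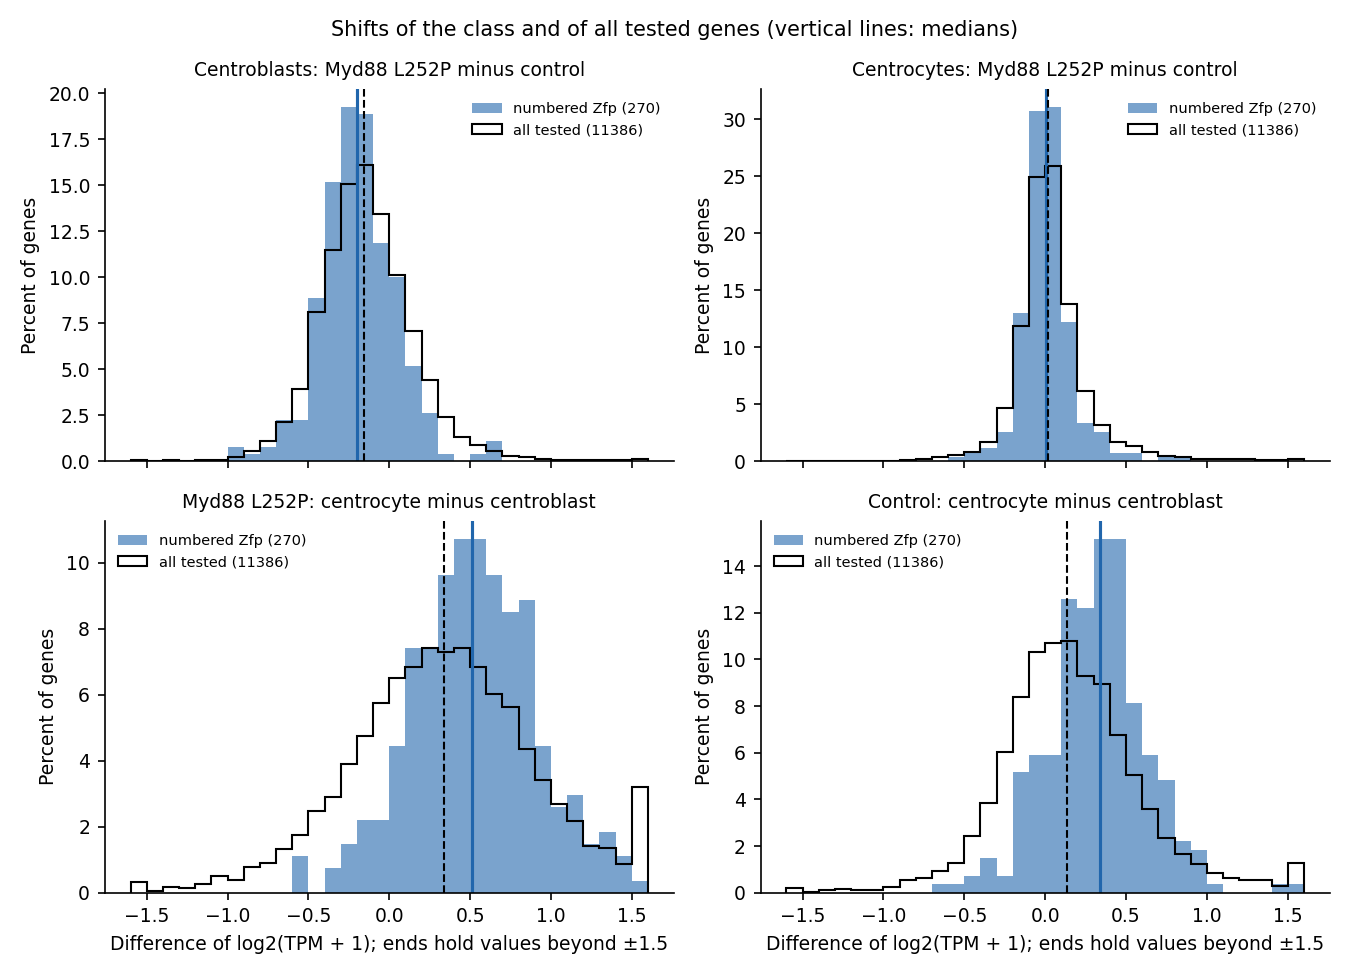
Distribution of log2(TPM + 1) differences for the 270 tested members (filled) and all 11386 tested genes (outline), as percent of genes; vertical lines are medians, solid for members and dashed for all genes. In the lower panels, centrocyte minus centroblast, the members sit to the right with medians of 0.51 in Myd88 L252P and 0.34 in control, against 0.34 and 0.14 for all genes.

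Medians of members and of all genes in the same range of level or length are given as a description. Below 3 TPM the median difference was 0.65 for 39 members and 0.41 for all 1520 genes in mutants, and 0.45 and 0.25 in controls. Between 3 and 10 TPM it was 0.58 for 89 members and 0.56 for all 1691 in mutants, and 0.37 and 0.30 in controls. Between 10 and 30 TPM it was 0.47 for 96 members and for all 2771 in mutants, and 0.26 and 0.22 in controls. Between 30 and 100 TPM it was 0.41 for 43 members and 0.28 for all 3347 in mutants, and 0.18 and 0.08 in controls. The 3 members over 100 TPM had a median of 0.17, against -0.02 for all 2057 such genes, in mutants and -0.13 against -0.08 in controls. Of the 4 ranges below 100 TPM, the medians lay closest between 10 and 30 TPM in both genotypes. By length, the medians in mutants were 0.53 for members and 0.21 for all genes up to 1500 bases, 0.50 and 0.36 up to 2500, 0.48 and 0.50 up to 4000, and 0.63 and 0.66 above that. In controls they were 0.31 and 0.07, 0.38 and 0.16, 0.27 and 0.21, and 0.39 and 0.31 in the same order. In mutants the members' median was thus not above that of all genes in either range over 2500 bases.

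Most calls in controls were calls in mutants too, and fewer the other way round, among members as among all genes. Of the 92 called in controls, 86 were also called in mutants, all in the same direction, 84 up and 2 down. That is 93.5% of the control calls and 47.5% of the 181 mutant calls. For all tested genes 91.9% of control calls were also called in mutants. Of their 6997 mutant calls 3216 were also called in controls. Members thus lay near all genes in both directions. Called in controls alone were Zfp934, Zfp777, Zfp472, Zfp583, Zfp579 and Zfp383. Across the 270 members the 2 differences correlated with Pearson's r = 0.80, and across all tested genes with 0.88. The 2 differences share no library, but their calls share an estimate of the spread over all 20 libraries. Members are also not independent of each other. Whether the zone difference itself depended on genotype was tested as an interaction. It passed for 0 of 270 members, where 0.0176% of all genes passed, with the lowest adjusted p at 0.403 for Zfp142. At an unadjusted p under 0.05 there were 21 members, or 7.78%, against 11.6% of all tested genes.

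**Figure D3:**
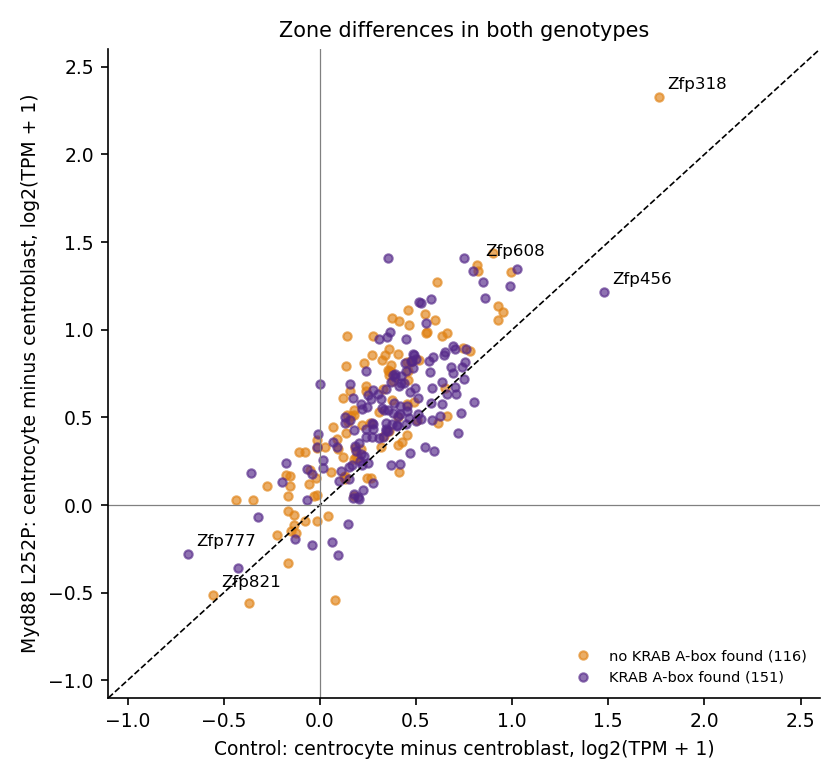
Each point is a tested member, at its centrocyte minus centroblast difference of log2(TPM + 1) in Myd88 L252P (y) and control (x); the dashed line marks equal differences, and colour marks whether a KRAB A-box was found. Most points lie in the upper right, Zfp318 farthest at 2.33 in Myd88 L252P and 1.76 in control, while Zfp777 and Zfp821 lie below 0 on both axes.

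Zfp318 showed the largest rise in centrocytes among members. Its product is needed in mature mouse B cells to make the long transcripts that give IgD beside IgM. It was at 13.8, 14.2, 16.8, 13.9 and 12 TPM in mutant centrocytes, against 3.61, 1.93, 2.68, 1.06 and 1.39 TPM in mutant centroblasts. In controls it was at 9.39, 16, 16.5, 11.3 and 15.1 TPM in centrocytes, against 2.58, 4.87, 3.04, 3.08 and 2.97 TPM in centroblasts. No centroblast library reached any centrocyte library. The differences were 2.33 ± 0.20 (SE) in mutants and 1.76 ± 0.20 in controls (limma adjusted p = 1.06e-08 and 1.21e-06). Zfp318 lies on chromosome 17 (GRCm38, 46383731 to 46420920, plus strand). The naive B cell markers above were also higher in the centrocyte libraries, and their part in this rise was not tested.

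Zfp456, a KRAB gene of the chromosome 13 cluster with a stretch before its start printed above, came next in controls. Its levels were 9.71, 6, 5.66, 6.67 and 7.08 TPM in mutant centrocytes, against 2.82, 2.68, 2.12, 2.48 and 2.01 TPM in mutant centroblasts. They were 5.6, 10.7, 6.27, 6.58 and 6.75 TPM in control centrocytes, against 1.5, 3.27, 1.85, 1.13 and 2.02 TPM in control centroblasts. The groups did not overlap, and the differences were 1.21 ± 0.18 in mutants and 1.48 ± 0.18 in controls (limma adjusted p = 1.62e-05 and 4.16e-06). Other annotated transcripts share 16.5% of its 50-base words, so part of its reads may be split with near copies.

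Zfp362, a relative of Zfp384, combined a high level with a clear change. It stood at 93.3, 97.5, 128, 87.1 and 90.1 TPM in mutant centrocytes, against 62.2, 48.2, 49.1, 36.6 and 34.9 TPM in mutant centroblasts. Control centrocytes had 86.0, 90.8, 93.0, 80.6 and 90.6 TPM, against 35.5, 44.6, 40.2, 63.3 and 46.2 TPM in control centroblasts. It rose by 1.10 ± 0.15 in mutants and 0.95 ± 0.15 in controls (limma adjusted p = 4.54e-06 and 6.86e-05). Every centrocyte library lay above every centroblast library.

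The KRAB gene Zfp619, with 33 fingers, averaged 3.43 ± 0.65 TPM in mutant centrocytes against 0.87 ± 0.25 TPM in mutant centroblasts, and 3.14 ± 0.72 TPM in control centrocytes against 1.07 ± 0.27 TPM in control centroblasts (SD, n = 5). Zfp239 rose by 1.44 in mutants and 0.90 in controls. Among the 6 largest rises without overlap in mutants were the KRAB genes Zfp192 (1.41, now Zkscan8), Zfp169 (1.34) and Zfp266 (1.34), and Zfp608 (1.37). All 4 also rose in controls, by 0.75, 1.02, 0.79 and 0.81, although Zfp192 missed the threshold there without control centroblast 5 or control centrocyte 2 or 3 (adjusted p up to 0.0548). Zfp292, whose human counterpart is recurrently mutated in chronic lymphocytic leukaemia, averaged 41.2 ± 7.95 TPM in mutant centrocytes against 15.8 ± 3.21 TPM in mutant centroblasts. In controls it averaged 38.9 ± 9.67 TPM in centrocytes and 19.5 ± 8.08 TPM in centroblasts, where library 2 reached 33.8 TPM.

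The few falls were modest. Zfp821 fell by 0.51 in mutants and by 0.56 in controls (limma adjusted p = 0.000153 and 0.000184). Its levels were 18.0, 17.8, 17.7, 16.5 and 15.9 TPM in mutant centrocytes, against 26.5, 24.9, 27.7, 25.7 and 20.3 TPM in mutant centroblasts. In controls they were 19.8, 19.7, 18.4, 19.7 and 20.1 TPM in centrocytes, against 28.1, 25.9, 28.6, 31.9 and 32.3 TPM in centroblasts, with no overlap in either genotype. The KRAB gene Zfp954 averaged 20.2 ± 2.35 TPM in mutant centrocytes against 26.2 ± 1.99 TPM in mutant centroblasts, and 20.9 ± 1.64 TPM in control centrocytes against 28.5 ± 3.42 TPM in control centroblasts, and fell in both. Zfp777, another KRAB gene, fell in controls, to 20.4 ± 1.25 TPM in centrocytes against 33.7 ± 5.47 TPM in centroblasts (log2 fold change -0.69 ± 0.13 SE, limma adjusted p = 0.00058). In mutants it had 21.4 ± 3.17 TPM in centrocytes and 26.3 ± 4.98 TPM in centroblasts, which did not pass (-0.28, adjusted p = 0.0731). Without mutant centroblasts 4 and 5 that difference was -0.39 with an adjusted p of 0.0198.

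**Figure D4:**
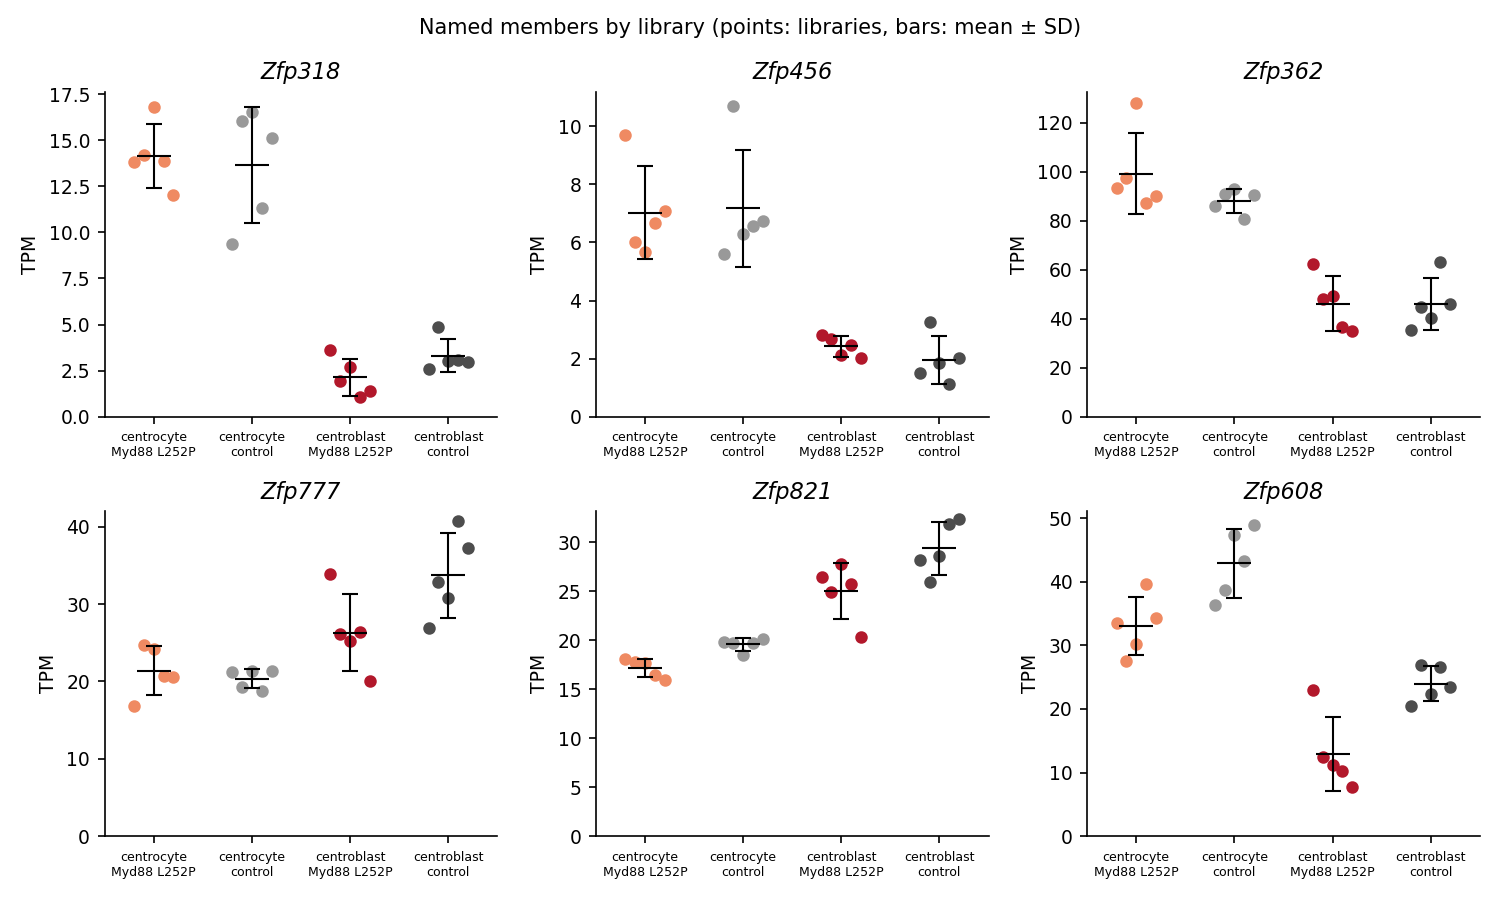
TPM of 6 members by library; points are libraries, bars are means ± SD (n = 5), and each axis starts at 0. Zfp318, Zfp456 and Zfp362 are higher in both centrocyte groups, Zfp777 and Zfp821 lower, and Zfp608 is lower in mutant than in control centroblasts.

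Members with known roles outside the KRAB system gave mixed values. The noncanonical NF-kB ligase gene Zfp91 averaged 64.5 ± 1.70 TPM in mutant centrocytes against 46.6 ± 13 TPM in mutant centroblasts, a rise of 0.51 (limma adjusted p = 0.00347), and 69.5 ± 3.12 TPM in control centrocytes against 62.1 ± 4.89 TPM in control centroblasts, which did not pass (0.16, adjusted p = 0.39). Zfp143 likewise rose in mutants, to 52.3 ± 1.29 TPM in centrocytes against 36.9 ± 7.81 TPM in centroblasts, and did not pass in controls, with 49.8 ± 3.31 TPM in centrocytes and 44.0 ± 4.92 TPM in centroblasts. Rescaling ended the call in mutants for both genes, and with mutant centroblasts 4 and 5 left out as well the difference was 0.04 for Zfp91 (adjusted p = 0.668) and 0.13 for Zfp143 (adjusted p = 0.164). Zfp148, a factor of GC-rich promoters, rose by 0.76 in mutants and 0.36 in controls, where 8 of 20 omissions of 1 library ended the call (adjusted p up to 0.0868). Zfp281, a regulator of pluripotent cells, rose in mutants by 0.86, as did Zfp217, a partner of the CoREST complex, by 1.11, and neither passed in controls (0.41 and 0.46). Zfp335, needed for T cell maturation in mice, rose in mutants by 0.46 and differed by 0.22 in controls (adjusted p = 0.296). Its call in mutants ended with rescaling, without mutant centroblasts 4 and 5, and with both, when the difference was 0.09 (adjusted p = 0.591). Zfp384, a fusion partner in human B cell leukaemia, rose in mutants by 0.41 (limma adjusted p = 0.0242), but its sign turned when libraries were rescaled without mutant centroblasts 4 and 5. The ribosome assembly genes Zfp622 and Zfp593 passed in neither genotype (-0.06 and 0.16 in mutants, -0.13 and 0.25 in controls), nor did Zfp830, a gene of genome stability (0.19 and 0.06).

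Values follow for KRAB members with a known target, besides Zfp57, which was near 0. Zfp809, which silences murine leukaemia virus in mouse embryonic cells, had 29.7, 30.2, 27.7, 27.3 and 24.7 TPM in mutant centrocytes, against 22.6, 20.5, 15.8, 13.1 and 11.4 TPM in mutant centroblasts. In controls it had 25.5, 30.1, 30.4, 27.8 and 28.5 TPM in centrocytes, against 19.9, 27.7, 19.1, 21.4 and 19.9 TPM in centroblasts. It rose by 0.75 and 0.39 (limma adjusted p = 0.00023 in mutants and 0.0471 in controls), with control centroblast 2 overlapping the centrocytes. The rise in controls was marginal and ended in 14 of 20 omissions of 1 library (adjusted p up to 0.106). Zfp932, which silences endogenous retroviruses, rose by 0.49 in mutants and 0.58 in controls, but 55.5% of its 50-base words occur in other genes, and in mutants the call ended without mutant centroblast 1 or 2 or mutant centrocyte 2 (adjusted p up to 0.0622). Rescaling ended its call in both genotypes, with an adjusted p of 0.537 in mutants and 0.0727 in controls. Zfp568, which represses a placental Igf2 transcript, rose in mutants by 0.69 and stood at 9.52 ± 1.37 TPM in control centrocytes and 9.48 ± 0.97 TPM in control centroblasts. Its rise in mutants did not pass without mutant centroblasts 4 and 5, and with rescaling as well it was 0.13 (adjusted p = 0.389).

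The members were also counted by protein class, with no test between classes. In mutants 104 of 151 tested KRAB members rose and 1 fell, with a median difference of 0.54, and of 116 without KRAB 70 rose and 4 fell, with a median of 0.48. In controls 59 KRAB members rose and 2 fell (median 0.37), and of the others 29 rose and 1 fell (median 0.24). After rescaling, controls had 40 rises and 6 falls with KRAB and 25 rises and 10 falls without, and mutants had 59 rises and 7 falls with KRAB and 42 rises and 17 falls without. By the number of fingers, of 80 tested members with 13 or more fingers 36 rose and 0 fell in controls (median 0.40), and of 33 with up to 3 fingers 6 rose and 1 fell (median 0.12). KRAB members were also lower in level, as given above, and the part of level in these counts was not tested. In 34 tested members over 10% of 50-base words occur in other genes, so their reads may be split with near copies. Without them 80 of 236 members rose and 3 fell in controls.

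Genes near the class by protein give a scale for these counts. Over all tested genes 48.8% rose and 12.6% fell in mutants, and 21.2% rose and 9.48% fell in controls. Of 32 tested BTB zinc finger genes (Zbtb symbols), 25 rose and 1 fell in mutants, and 8 rose and 1 fell in controls, with medians of 0.65 and 0.30. Of 13 tested SCAN genes (Zscan and Zkscan symbols), 8 rose and 1 fell in mutants, and 1 rose and 2 fell in controls. The KRAB partners are listed as 24 genes, of which 23 were tested. In mutants 14 rose and 1 fell, or 60.9% and 4.35%. In controls 4 rose, or 17.4%, namely Mphosph8 of the HUSH complex, Morc2a, Morc3 and Smarcad1. The histone methyltransferase gene Suv39h1 fell there, or 4.35%. Both control shares lay below those of all tested genes. Trim28, the common corepressor, was among the more abundant genes and passed in no comparison, with 253 ± 31.6 TPM in mutant centrocytes, 245 ± 8.93 in control centrocytes, 263 ± 9.07 in mutant centroblasts and 253 ± 41.1 in control centroblasts. Setdb1 rose in mutants, at 51.4 ± 8.13 TPM in mutant centrocytes against 33.3 ± 10.6 TPM in mutant centroblasts. It had 47.4 ± 1.40 TPM in control centrocytes and 39.6 ± 2.83 TPM in control centroblasts, which did not pass (0.26, adjusted p = 0.256).

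Neighbouring members moved together in places. The cluster on chromosome 13 between Zfp712 and Zfp273 (GRCm38, 67038596 to 67827002, 788 kb) holds 17 members, all with a KRAB A-box, of which 16 were tested. In mutants 15 of the 16 rose and 0 fell, where 48.8% of all tested genes rose and 12.6% fell. The differences lay between 0.23 and 1.21 with a median of 0.68. In controls 13 rose and 0 fell, where 21.2% of all tested genes rose and 9.48% fell. The differences there lay between 0.17 and 1.48 with a median of 0.49. Rescaling left 9 rises in mutants and 8 in controls, and 0 falls in each, where 29.6% and 17.9% of all genes rose. Summed over its 17 members, the cluster gave 186, 167, 164, 169 and 162 TPM in mutant centrocytes, against 114, 98.3, 112, 109 and 105 TPM in mutant centroblasts. It gave 154, 186, 179, 173 and 164 TPM in control centrocytes, against 110, 151, 111, 101 and 108 TPM in control centroblasts. Every centrocyte library lay above every centroblast library, with control centroblast 2 the nearest. Its most abundant gene, Zfp87 (31.0 TPM over all libraries), rose by 0.46 in mutants and 0.37 in controls, and Zfp953 was the one tested gene that passed in neither genotype (0.23 and 0.17). These genes are near copies, and 7 of the 17 share over 10% of their 50-base words with other genes, Zfp708 all of them. Of 10 tested genes that share at most 10%, 8 rose in controls.

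Counts varied among the other clusters. Over all tested genes, for scale, 48.8% rose in mutants and 21.2% in controls. On chromosome 17, 8 of 10 tested members between Zfp871 and Zfp414 rose in mutants and 6 in controls, with medians of 0.60 and 0.49. On chromosome 9, 4 of 5 between Zfp560 and Zfp846 rose in each genotype. The largest cluster, 20 members on chromosome 17 between Zfp160 and Zfp13, had 17 tested, of which 9 rose in mutants and 5 in controls. These are 52.9% and 29.4%, near the shares of all tested genes. A pair of chromosome 7 clusters had 0 rises in controls, among 8 tested members between Zfp180 and Zfp526 (median 0.10) and 9 between Zfp553 and Zfp646 (median 0.02). In mutants 2 rose between Zfp180 and Zfp526, and between Zfp553 and Zfp646 3 rose and 1 fell. No test compared one cluster with another.

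**Figure D5:**
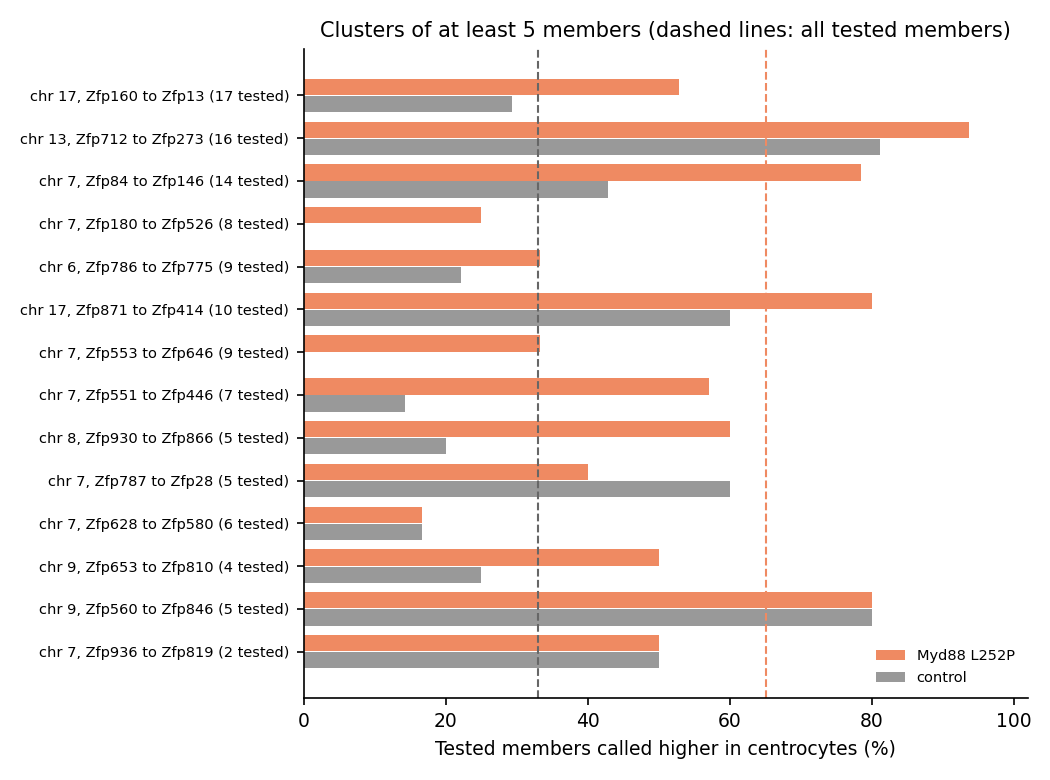
Percent of tested members called higher in centrocytes for each of the 14 clusters of at least 5 members, named by chromosome and first and last gene; upper bars Myd88 L252P, lower bars control, dashed lines the share over all tested members (65.2% and 33.0%). The chromosome 13 cluster stands at 93.8% and 81.3%, and a pair of chromosome 7 clusters at 0% in control. Over all tested genes 48.8% were higher in Myd88 L252P and 21.2% in control.

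The motif shown before the start of the chromosome 13 genes was common in the class. In RefSeq GRCm38.p6, within 250 bases before the start and on either strand, this core was found in 48 of 277 members with a promoter entry, or 17.3%, against 519 of 27025 genes, or 1.92%. It was in 14 of 15 members of the chromosome 13 cluster, in 39 of 170 KRAB members and in 9 of 105 without KRAB. Among members that rose in control centrocytes, 24 of 76 held it, against 15 of 148 other tested members. Outside the chromosome 13 cluster these were 13 of 65 and 13 of 145. Of 39 tested members with the motif 24 rose in controls (median 0.50), and of 185 without it 52 (median 0.28). Over all tested genes, members included, the motif went with no such difference. Of 392 genes with it 83 rose, or 21.2%, and of 7758 without it 1644, also 21.2%. Genes outside the class were not counted apart. A match is a run of letters and not a bound site. Of 5 other motifs searched on both strands, the ETS core CCGGAAG was in 16.5% of 345 member promoters and 6.91% of all 32851, and the SP1 core GGGCGG in 41.7% and 32.7%. The NRF1 site was in 2.61% and 0.782%, the E-box CACGTG in 6.38% and 6.02%, and the CRE site TGACGTCA in 3.48% and 1.55%.

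Myd88 L252P was compared with control in centroblasts next. Of 270 tested members 0 rose and 7 fell, or 2.59%, where 0.905% of all tested genes rose and 3.38% fell, 4.29% in all. The median member differed by -0.20 and the median gene by -0.16, so the class lay close to all genes. All 5 mutant libraries lay below all 5 controls for 9 members, or 3.33% against 2.99% of all tested genes, and above them for 0, against 0.755% of all. At an unadjusted p under 0.05 there were 76 members, or 28.1%, against 30.3% of all tested genes. The members that fell were Zfp608, Zfp369, Zfp831, Zfp46, Zfp60, Zfp207 and Zfp191, now Zfp24. Rescaling gave 1 rise and 7 falls, or 0.372% and 2.6%, where 2.51% of all genes rose and 3.13% fell. Without mutant centroblasts 4 and 5 there were 3 rises (Zfp365, Zfp651 and Zfp623) and 2 falls (Zfp608 and Zfp386), or 1.11% and 0.741%, where 2.15% of all genes rose and 1.45% fell, and a fit of the 10 centroblast libraries alone called 0. The summed erythroid markers did not overlap between mutant and control centroblasts, and their part in these calls was not tested.

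Zfp608, reported as a repressor of the Rag genes in mouse thymocytes, had the smallest adjusted p. It was at 22.9, 12.4, 11.1, 10.3 and 7.68 TPM in mutant centroblasts, against 20.5, 26.9, 22.3, 26.7 and 23.4 TPM in control centroblasts. Mutant library 1 lay within the controls and the other 4 lay below all of them. The difference was -0.93 ± 0.18 (limma adjusted p = 0.00912). Without mutant libraries 4 and 5 it was -0.66 (adjusted p = 0.0326), and in the fit of the 10 libraries alone the adjusted p was 0.109. In mutant centrocytes Zfp608 stood at 33.6, 27.5, 30.2, 39.6 and 34.4 TPM, against 36.4, 38.6, 47.4, 43.3 and 49.0 TPM in control centrocytes, which did not pass (-0.37, adjusted p = 0.55).

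Libraries 4 and 5 were the lowest mutants for 5 of the other 6 falls. Zfp831 was at 3.34, 1.99, 3.27, 2.12 and 1.16 TPM in mutant centroblasts, against 4.18, 5.71, 5.70, 4.27 and 4.37 TPM in control centroblasts (-0.83 ± 0.19, limma adjusted p = 0.0213). Zfp207, the spindle protein gene, was at 222, 220, 222, 180 and 124 TPM in mutant centroblasts, against 241, 285, 243, 251 and 286 TPM in control centroblasts (-0.46 ± 0.12, limma adjusted p = 0.0356). Zfp46, a KRAB gene, was at 7.31, 6.82, 6.61, 3.54 and 2.17 TPM, against 8.24, 9.57, 7.81, 8.98 and 8.75 TPM in controls. The groups of these 3 genes do not overlap, and in each of them library 5 is the lowest mutant. Zfp60 (6.27 ± 1.82 TPM in mutants, 10 ± 1.21 in controls), Zfp191, a SCAN factor needed for myelin in mice (41.7 ± 7.45 and 54.3 ± 5.87), and Zfp369, a relative of a neurotrophin receptor partner (2.55 ± 1.74 and 5.58 ± 1.82), make up the rest. Zfp369 overlapped between groups and was named after its values were seen, as were the members called only under other settings. Of the 7 falls, only that of Zfp608 passed without mutant centroblasts 4 and 5, and it alone passed in all 20 omissions of 1 library. The call ended in 17 omissions for Zfp46 and Zfp191 (adjusted p up to 0.126 and 0.136), in 6 for Zfp369 (0.119), in 5 for Zfp207 (0.0966) and in 4 for Zfp60 (0.083). For Zfp831 it ended in 1, without control centroblast 2 (0.0611), whose absence gave the highest p for all of these but Zfp46.

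In centrocytes no member was called. Of 270 tested, 0 rose and 0 fell in mutants against controls, where limma called 0.896% of all genes higher and 0.307% lower, 1.2% in all. At an unadjusted p under 0.05 there were 13 members, or 4.81%, against 9.61% of all tested genes. After rescaling 0 members were called again, where 1.29% of all genes rose and 0.458% fell. The median member differed by 0.01 and the median gene by 0.02. All 5 mutants lay above all 5 controls for 2 members, or 0.741% against 2.63% of all tested genes, and below them for 4, or 1.48% against 1.99%. A missing call does not show an unchanged level.

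Zfp647 and Zfp365, named after their values were seen, came nearest. Zfp365, whose human counterpart is a p53 target that protects genome stability, had 5.04, 5.21, 4.86, 5.12 and 2.33 TPM in mutant centrocytes, against 1.69, 2.80, 2.09, 1.41 and 2.09 TPM in control centrocytes (0.85 ± 0.25, limma adjusted p = 0.118). Mutant library 5 lay inside the controls and the other 4 above them. In centroblasts it had 3.87, 2.13, 1.12, 0.952 and 0.394 TPM in mutants, against 0.648, 0.570, 0.654, 0.515 and 0.471 TPM in controls (0.64 ± 0.25, adjusted p = 0.103). Without mutant centroblasts 4 and 5 it passed in both cell types, at 0.85 in centrocytes (adjusted p = 0.0236) and 1.02 in centroblasts (adjusted p = 0.018). Zfp647 had 0.866, 1.27, 1.33, 1.24 and 1.25 TPM in mutant centrocytes, against 0.610, 0.863, 0.194, 0.417 and 0.337 TPM in control centrocytes (0.57 ± 0.17, limma adjusted p = 0.11). These levels are near the filter, and in centroblasts its means were 0.941 TPM in mutants and 0.909 TPM in controls. The KRAB gene Zfp386 was at a mean of 45.5 TPM in mutant centrocytes and 59.5 in control centrocytes, and 42 in mutant centroblasts and 54.4 in control centroblasts. It passed in neither cell type (-0.38 in each) with all libraries, and in both without mutant centroblasts 4 and 5.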

How the data were processed

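RNA was measured in 20 libraries from sorted cells, made per the labels' protocols with a kit that keeps the strand of mRNA. The authors deposited TPM per gene symbol for each library. Per the submitters' processing notes they used STAR and the build mm10, while for versions, annotation and counting tool the sources used here give nothing. TPM hold no read depth, so counting error could not be estimated.

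Groups came from the titles, sort and genotype labels. limma 3.58.1 in R 4.3.3 (trend and robust, two-sided) was fitted on log2(TPM + 1) with 4 group means over 20 libraries, which left 16 residual degrees of freedom, on the 11386 genes that reached 1 TPM in 5 or more libraries. On simulated data it recovered 86.5% of 200 genes changed by 1 on the log2 scale for the genotype comparison in centrocytes and the zone comparison in mutants, with 7.67 and 11.7 other calls per draw over 3 draws. For the interaction it recovered 65.8%, with 9 other calls per draw. Each simulated gene had the same spread in all groups, so recovery where groups differ in spread was not measured. Changes smaller than 1 were not simulated, and most member differences were smaller, so their recovery was not measured. No change was set for the genotype comparison in centroblasts or the zone comparison in controls. KRAB A-boxes were sought in GENCODE M21 coding sequences with a profile built from 151 seeds (pyhmmer 0.12.3, E-value under 0.001), and fingers by a letter pattern, since no protein table was at hand. A cluster joined members under 500 kb apart. The share of 50-base words found in other genes measured near copies.

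Members named with values were, per comparison, the 6 largest rises and 6 largest falls among called members with a mean of at least 2 TPM and no overlap of the groups, the 10 highest in level, those with a known role and those called between genotypes in centroblasts. Members and lists were chosen with earlier results of these data known. Alternatives were the pseudocount, the filter, scaling, trend, fewer libraries, each library left out and the replicate number as a block. Rescaling combined with the omission of mutant centroblasts 4 and 5 was chosen after seeing the data.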

Additional observations from a re-analysis of the deposited data

Results flagged for a closer look

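Single libraries far from the other 4 of their group were looked for among the named members and class totals, with a gap test whose chance rate is about 1 in 20 groups. It flagged 16 of 168 groups. Control centroblast 2 stood highest for 5 values, namely the summed level of the members (5375 TPM, others 4293 to 4569), Zfp62 (96.3 TPM, others 50.9 to 60.2), Zfp292 (33.8 TPM, others 14.6 to 17.2), Zfp809 (27.7 TPM, others 19.1 to 21.4) and Zfp318 (4.87 TPM, others 2.58 to 3.08). Without that library 120 members in place of 92 were called between zones in controls, and 3763 genes of all in place of 3498.

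Among mutant centrocytes, library 3 was high for Zfp362 (127.8 TPM, others 87.1 to 97.5) and Zfp46 (10.8 TPM, others 7.50 to 8.44), library 4 was high for Zfp330 (80.7 TPM, others 72.9 to 74.9), library 5 was low for Zfp365 (2.33 TPM, others 4.86 to 5.21), and library 1 was low for Zfp593 (18.0 TPM, others 23.1 to 24.6) and Zfp647 (0.866 TPM, others 1.24 to 1.33). Among control centrocytes, library 3 was low for Zfp821 (18.4 TPM, others 19.7 to 20.2) and high for Zfp954 (23.7 TPM, others 19.5 to 20.7), library 2 was high for Zfp456 (10.7 TPM, others 5.6 to 6.75), and library 1 was low for Zfp148 (30.02 TPM, others 37.1 to 38.6). Control centroblast 4 was high for Zfp593 (18.9 TPM, others 16.2 to 16.9).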

How the results depend on the processing

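The count of members called between genotypes in centroblasts, 7, was the least stable. It was 3 with no filter, 4 without trend and robust fitting and 0 in the fit of the 10 libraries compared. Among all genes 270 of 16477, 367 of 11386 and 27 of 10693 were called in these settings. With 1 library left out the count of members ranged between 2 and 61. It was 61 without mutant centroblast 1 (60 of them lower, 22.3% of members against 23.6% of all genes), 12 without mutant centroblast 2 (all lower, 4.46% against 6.29%), 3 without control centroblast 3, and 2 without mutant centroblast 4 or control centroblast 2, 4 or 5. In centrocytes the count of 0 became 1 with no filter (Zfp941) and 2 without mutant centroblasts 4 and 5, in the fit of the 10 libraries compared and with rescaling combined with that omission. Among all genes 173 of 16477, 387 of 11352, 302 of 11115 and 406 of 11338 were called in these settings, in the same order. Leaving out 1 library gave 0 to 1 members, the 1 being Zfp365 without mutant centroblast 1 or 5 or mutant centrocyte 5. Between zones the 92 calls in controls became 140 without mutant centroblasts 4 and 5, and 82 with rescaling. Among all genes the 3498 calls became 5417 of 11352 and 4046 of 11355. With 1 library left out the member calls ranged over 63, without control centrocyte 3, to 122, without mutant centroblast 5. All genes had 2636 of 11354 and 4724 of 11373 calls there. The 181 in mutants became 127 with rescaling, where 6648 of 11355 genes were called, against 6997 in the main fit. With 1 library left out the members ranged over 164, without mutant centrocyte 2, to 191, without mutant centrocyte 5. Among all genes 6362 of 11319 and 6943 of 11354 were called there. The interaction stayed at 0. Expressed members numbered 214 at 5 TPM and 312 at any level above 0. Reversed in mutants between zones were Zfp330 after rescaling (-0.076) and Zfp384 with rescaling combined with the omission of mutant centroblasts 4 and 5 (-0.00702). The causes were not tested.

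With the replicate number as a block the counts were 4 between genotypes in centroblasts, 0 in centrocytes, 115 between zones in controls, 190 in mutants and 0 for the interaction. Among all 11386 genes they were 437, 167, 4203, 7322 and 14 in the same order. The replicate numbers were not taken as pairs. Deviations of same-numbered libraries correlated over 0.1 in 4 of 5 pairs between zones in each genotype (-0.0168 to 0.259 in controls, -2.93e-05 to 0.269 in mutants), in 1 of 5 between genotypes in centroblasts and in 3 of 5 in centrocytes. TPM keeps no depth, so the precision of low members is unknown.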
